A study of Mus musculus with 8 samples.

Results

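The genes described here encode the kinases of the mitogen-activated protein (MAP) kinase cascades, their scaffolds and the dual-specificity phosphatases (DUSPs). They were chosen by symbol: every protein-coding gene of the deposited table whose name begins with Mapk, Map2k, Map3k, Map4k or Dusp followed by a digit, which gave 71 of 30387 genes. White adipocytes had been isolated from the epididymal fat pads of male Ad-Yap/Taz-KO mice (KO) and wild-type mice (WT) and subjected to RNA-seq. In KO mice Cre recombinase under the adiponectin promoter deletes floxed alleles of Yap1 and of Wwtr1, the gene encoding TAZ. Mice received normal chow (NC) or a Western-type high-fat diet (HFD) for 4 weeks, from week 5 of age in the description of the series and from a later week in the study's methods, which gives WT NC, KO NC, WT HFD and KO HFD with 2 libraries each. The study asks how YAP and TAZ protect adipocytes from death during diet-induced obesity. Whether the WT mice carried floxed alleles is not given for these samples in the sources used here. Cre is active from the onset of adiponectin expression and not only after the change of diet. Adipocytes were isolated but no sort is described, other cells of the fat pad contribute RNA, and fewer cells of a type and less RNA per cell cannot be told apart in such bulk samples. The labels do not say that the libraries of a group came from separate mice, but the study describes them as separate mice and its data as biological replicates. The p-values measure only the spread between these libraries.

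A MAP kinase cascade runs from a MAP3K through a MAP2K to a terminal MAP kinase, and MAP4Ks act above the MAP3Ks. Growth factor signals run mainly through the ERK cascade, whereas inflammatory cytokines and cellular stress run mainly through the JNK and p38 cascades, which in fat are known for their activity in obesity. DUSPs remove the phosphates that activate the terminal kinases, and several of them are themselves induced by MAP kinase activity. RNA levels carry no information on phosphorylation, so the values below are amounts of transcript and not kinase activity.

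The values are normalized counts, that is, reads per gene after the authors had scaled each library by its size factor and rounded. Pairs of values are given with replicate 1 before replicate 2. The libraries held 14890264 to 20994246 normalized counts, which correspond to about 14000000 to 22300000 reads on genes, and the members held 0.29 to 0.439% of each total. Wwtr1 fell in KO, from 7121 and 6807 to 2060 and 2707 on HFD and from 5594 and 4743 to 2441 and 1957 on NC, and Yap1 fell on NC (log2 fold change -0.71 ± 0.16 SE, limma adjusted p = 0.024) but did not pass on HFD (-0.42 ± 0.16, adjusted p = 0.059). The call of Yap1 on NC was lost when any 1 of the 4 NC libraries was left out, and on HFD its log2 fold change was -0.63, and called, without KO HFD replicate 2, -0.21 without KO HFD replicate 1 and -0.04 after scaling to the same total. The WT HFD libraries differed from each other far less than other pairs did in abundant genes: over genes of 1000 to 5000 reads the median squared difference was 5.64 times that of counting error, against 17.01 to 55.64 times in the other groups. Although the study describes them as separate mice, this spread leaves it uncertain whether they are independent samples. Both of their values are printed, no mean ± SD is given for them, and a second fit, called the averaged fit below, took their mean as 1 sample; calls of members that it did not make are named, and Yap1 on NC was not called in it (adjusted p = 0.075). Of the adipocyte markers 7 of 8 were lower in KO on HFD, with a summed level of 177086 and 94930 against 375354 and 367690 in WT, and all 10 macrophage markers were higher, with sums of 33729 and 30698 against 2214 and 2317. Of the fibroblast and progenitor markers 5 of 7 were higher in KO on HFD, with sums of 33106 and 37562 against 8827 and 9140, and of the endothelial markers 3 of 7, with 20301 and 31295 against 15120 and 15762; in the averaged fit these counts were 4 and 0. On NC the macrophage sums were 30337 and 17350 in KO and 4799 and 4745 in WT, with 9 of 10 markers higher in KO. Of the adipocyte and macrophage lists Fcgr1 alone was ever at 0, in 1 of the WT HFD libraries. The part of these cell markers in the results below was not tested.

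A mean of 5 or more normalized counts was required for a test, and 67 of the 71 members had it. Mapk13, Mapk15, Dusp21 and Dusp27 were not, and none of them exceeded 24 normalized counts in any library. Mapk13, which encodes p38 delta, and Mapk15, an atypical kinase, were at 0 in both WT HFD libraries and reached 10 and 13 elsewhere. At a value of 0 no read was counted, and the expected number of reads can be up to about 3.

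Levels of different genes were compared per kilobase of annotated exon. In the ERK cascade Mapk3, which encodes ERK1, lay at 360.7 to 509.1 normalized counts per kb over the 8 libraries. Its activators Map2k1 and Map2k2 (MEK1 and MEK2) overlapped, at 165.1 to 260.7 and 173.6 to 231.0 per kb. Thus Mapk3 transcript exceeded both MEK transcripts in every library, while the MEK transcripts stood at similar levels.

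In the JNK cascade Mapk9 (JNK2) stood at 124.1 to 212.4 per kb, Mapk8 (JNK1) at 38.4 to 58.9 and Mapk10 (JNK3) at 3.8 to 11.5, and these ranges did not overlap. Map2k4, the JNK kinase MKK4, lay at 162.3 to 298.5 per kb and Map2k7 (MKK7) at 102.9 to 142.3. Among the p38 kinases Mapk14 (p38 alpha) was the most abundant with 160.2 to 283.8 per kb, above Mapk12 (p38 gamma) with 21.0 to 68.9 and Mapk11 (p38 beta) with 18.4 to 50.2, which overlapped. Their activator Map2k3 (MKK3) was at 346.4 to 538.0 per kb and its paralog Map2k6 (MKK6) at 15.4 to 37.7. The ERK5 cascade was low in its kinase, with Mapk7 (ERK5) at 26.9 to 54.8 per kb, and higher in its activator Map2k5 (MEK5), at 147.5 to 182.1. Mapk6, the atypical kinase ERK3, exceeded all of these with 907.3 to 1348.0 per kb, whereas its paralog Mapk4 stayed at or below 4.6.

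**Figure D1:**
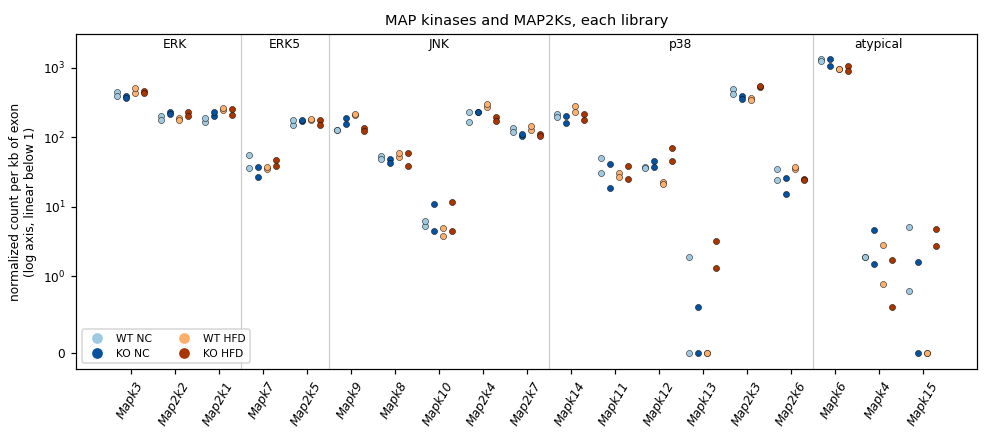
Normalized counts per kb of exon on a log axis that is linear below 1, for MAP kinases and MAP2Ks arranged by cascade; each point is 1 of 8 libraries and the colour gives its group. Mapk6 lies highest, Mapk9 lies above Mapk8 in every library, and Mapk13, Mapk4 and Mapk15 lie near 0.

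Dusp1, the stress-inducible nuclear phosphatase MKP-1, was the highest member in every group. It held 14.0 to 21.3% of the summed per-kb level of all members. In WT NC it stood at 2933.6 per kb, followed by Mapk6 at 1303.2, Dusp10 (MKP-5) at 962.0, Map4k4 at 799.9 and Dusp6 (MKP-3) at 683.0, and Map3k6 (ASK2) led the MAP3Ks with 412.9 per kb. Mapk1ip1 led the scaffolds and other symbol matches with 182.2, and Dusp3 led the atypical DUSPs with 306.3. In KO HFD Dusp5 reached 947.2 per kb and stood above Map4k4 (799.1), whereas it was at 216.3 in WT NC.

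The comparison of KO with WT on HFD addresses what the loss of YAP and TAZ does to these cascades under the diet. The nuclear phosphatases Dusp1, Dusp2, Dusp4 and Dusp5 were all higher in KO, with Dusp5 furthest at an 8.84-fold difference, and Dusp7 was 2.61-fold higher. Of the 5 kinases of the JNK module Mapk9 and Map2k4 were lower, with log2 fold changes of -0.69 and -0.65, and Mapk8, Mapk10 and Map2k7 were not called. The MAP3Ks moved in both directions: Map3k9, Map3k12, Map3k8, Map3k11 and Map3k1 were higher by 0.59 to 2.51 on the log2 scale, and Map3k4, Map3k5 and Map3k7 were lower, with log2 fold changes of -0.78 to -0.65. In the p38 cascade Mapk12 and Map2k3 were higher by 1.37 and 0.60. Mapk3, Map2k1 and Map2k2 of the ERK cascade and both kinases of the ERK5 cascade did not pass the test. In all limma called 23 members, 14 higher and 9 lower, a call being an adjusted p up to 0.05 together with a log2 fold change of 0.59 or more in size.

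Of all 18800 genes tested 32.2% were called, 17.1% higher and 15.1% lower, and of the members 34.3%, which is close to that share. Their median log2 fold change was 0.00 against 0.09 over all genes, and their median absolute change was 0.53 against 0.74. The libraries of KO lay both above those of WT in 35.8% of members and both below in 32.8%, against 36.5% and 33.0% of all genes. In the averaged fit 9 members were called, where 18.3% of all genes were: Dusp5, Dusp2, Map4k1, Map3k12, Dusp7, Mapk12 and Dusp1 higher, and Dusp3 and Map3k4 lower. Scaling all libraries to the same total moved the median of all genes from 0.09 to 0.47, and then 20 members were called higher and 0 lower, where 24.6% of all genes were higher and 7.27% lower, so that none of the 9 lower calls held. Leaving out 1 library gave 13 calls without WT HFD replicate 1, 8 without WT HFD replicate 2, 17 without KO HFD replicate 1 and 14 without KO HFD replicate 2. Of the 23 calls 16 were lost in at least 1 of these fits, with limma adjusted p of 0.028 to 0.22 there, while Dusp1, Dusp2, Dusp3, Dusp5, Dusp7, Map3k12 and Map4k1 were called in each. Mapk9 was lost without WT HFD replicate 2 alone.

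**Figure D2:**
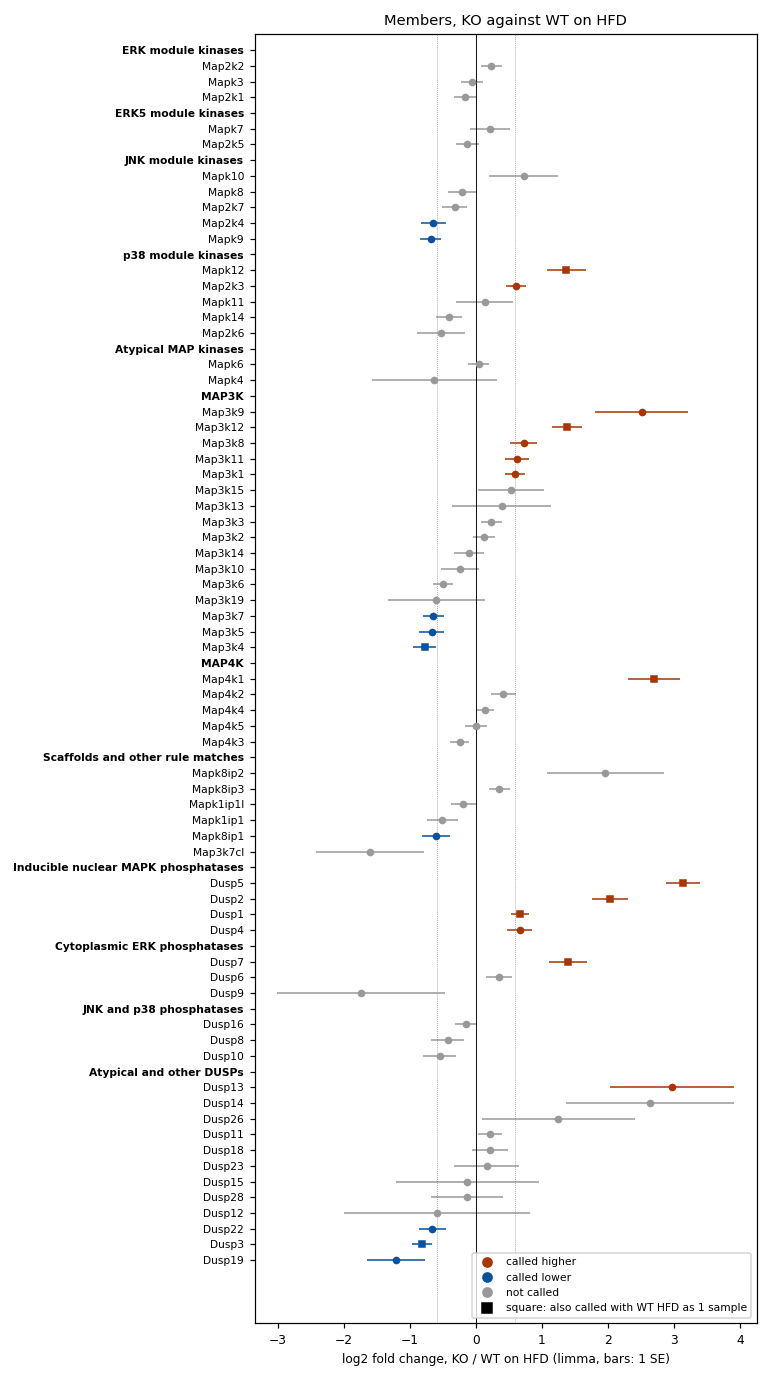
Log2 fold change of KO over WT on HFD with 1 SE (limma) for the tested members described here, grouped by role; dotted lines mark 0.59 in either direction and squares mark calls that held in the averaged fit. The 4 inducible nuclear phosphatases all lie to the right, with Dusp5 at 3.14, and Map2k1, Mapk3 and Map2k2 lie between -0.16 and 0.23.

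Of the inducible nuclear phosphatases all 4 were called higher, where 17.1% of all genes were, and their log2 fold changes ran from 0.66 to 3.14 with a median of 1.35. The class is small and was described with its values known, so its count is given as a description. The stretches upstream of the start sites of 3 of them are shown because these genes were higher in KO on HFD, where Dusp5 and Dusp2 moved most. On NC the log2 fold changes of KO over WT were -0.56 for Dusp1, -0.26 for Dusp2 and 1.14 for Dusp5. No window was found for Dusp4. The stretches were read 5′ to 3′ on the gene's strand from RefSeq (GRCm38.p6) and end where the annotated gene begins. Capitals mark matches on either strand to the cAMP response element TGACGTCA, the AP-1 site TGANTCA, the TEAD site GGAATG or the CArG box, the site of serum response factor.
Dusp1, chr17:26508520-26508722, minus strand: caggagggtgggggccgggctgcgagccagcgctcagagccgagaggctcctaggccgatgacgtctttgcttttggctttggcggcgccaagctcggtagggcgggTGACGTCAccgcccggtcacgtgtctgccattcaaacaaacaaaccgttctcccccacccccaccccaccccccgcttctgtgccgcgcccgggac
Dusp2, chr2:127335909-127336158, plus strand: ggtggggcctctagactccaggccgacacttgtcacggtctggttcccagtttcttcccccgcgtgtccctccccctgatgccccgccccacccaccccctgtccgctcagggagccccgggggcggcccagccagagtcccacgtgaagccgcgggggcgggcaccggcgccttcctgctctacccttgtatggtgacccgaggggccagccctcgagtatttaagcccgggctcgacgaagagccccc
Dusp5, chr19:53528895-53529108, plus strand: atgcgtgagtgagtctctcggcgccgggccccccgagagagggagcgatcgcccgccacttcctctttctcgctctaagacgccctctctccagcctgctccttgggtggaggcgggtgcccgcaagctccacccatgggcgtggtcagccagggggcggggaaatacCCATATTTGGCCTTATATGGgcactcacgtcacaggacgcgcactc

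Dusp1 held 1 cAMP response element, which began 143 bases upstream of the RefSeq start, and Dusp5 held 2 adjacent CArG boxes, which began 82 and 72 bases upstream. Dusp2 held none of these motifs in its window. Over 32851 windows of 250 bases upstream of annotated starts, 1.55% held the cAMP response element, 1.47% a CArG box, 6.75% the AP-1 site and 12.6% the TEAD site. Windows were found for 53 of the 71 members, and in them the CArG box occurred in Dusp5 alone and the cAMP response element in Dusp1, Dusp8 and Mapk10. The AP-1 site occurred in Dusp13, Map2k6, Map2k7 and Map3k10 and the TEAD site in Dusp27, Map3k14, Mapk13 and Mapk8ip2, and a match to such letters is a description of the window only. The windows of 12 of the 14 members called higher in KO on HFD and of 7 of the 9 called lower were among them, and none of these held the TEAD letters.

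Dusp5 encodes a nuclear phosphatase selective for ERK. It had 202 and 345 normalized counts in WT HFD, 562 and 508 in WT NC, 1475 and 940 in KO NC and 2331 and 2354 in KO HFD. No 2 groups overlapped, and they ran from WT HFD through WT NC and KO NC to KO HFD. The log2 fold change of KO over WT on HFD was 3.14 ± 0.26 (SE; limma adjusted p = 2.1e-06), which makes it the largest of any member in this comparison. This was also the order of the macrophage marker sums, and it was shared among the tested members by Dusp5 and Map4k1 and by 2.27% of all genes. Of the exon bases of Dusp5 22.1% lay opposite a gene that is not in the table, and whether the counting used strand is not given in the sources used here.

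Dusp2 (PAC-1), a nuclear phosphatase known for its expression in immune cells, had 88 and 80 normalized counts in WT HFD and 326 and 369 in KO HFD. In WT NC it had 268 and 207 and in KO NC 240 and 161. It was thus lowest in WT HFD and highest in KO HFD, with the NC groups overlapping each other between them. Its log2 fold change was 2.03 ± 0.27 (SE; limma adjusted p = 0.00014). Unlike Dusp5, it did not follow the order of the macrophage markers, since KO NC was not above WT NC.

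Dusp1 had 5849 and 5700 normalized counts in WT HFD against 9208 and 9228 in KO HFD, and 9886 and 9540 in WT NC against 6830 and 6338 in KO NC. The genotypes thus differed in opposite directions on the diets, without overlap on either. On HFD the log2 fold change was 0.67 ± 0.14 (SE; limma adjusted p = 0.0027). Dusp1 is an immediate-early gene that responds to tissue dissociation. The sum of 8 other immediate-early genes was 185510 and 166453 in WT NC, 81267 and 80443 in KO NC, 96160 and 96055 in WT HFD and 78144 and 83292 in KO HFD, so Dusp1 and that sum both lay lower in KO NC than in WT NC, whereas on HFD Dusp1 lay higher in KO and the sum lower. Of these 8 genes 1 was higher and 2 were lower in KO on HFD, and 8 were lower in KO on NC (median log2 fold change -1.02), in the averaged fit as well. The part of dissociation in the values of Dusp1 was not tested.

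Dusp4 (MKP-2) had 799 and 876 normalized counts in WT HFD and 1599 and 1095 in KO HFD. WT HFD lay below all other libraries, which ran from 1095 to 1599. Its log2 fold change of 0.66 ± 0.19 (SE; limma adjusted p = 0.017) was lost in the averaged fit (adjusted p = 0.10) and fell to 0.39 without KO HFD replicate 1.

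**Figure D3:**
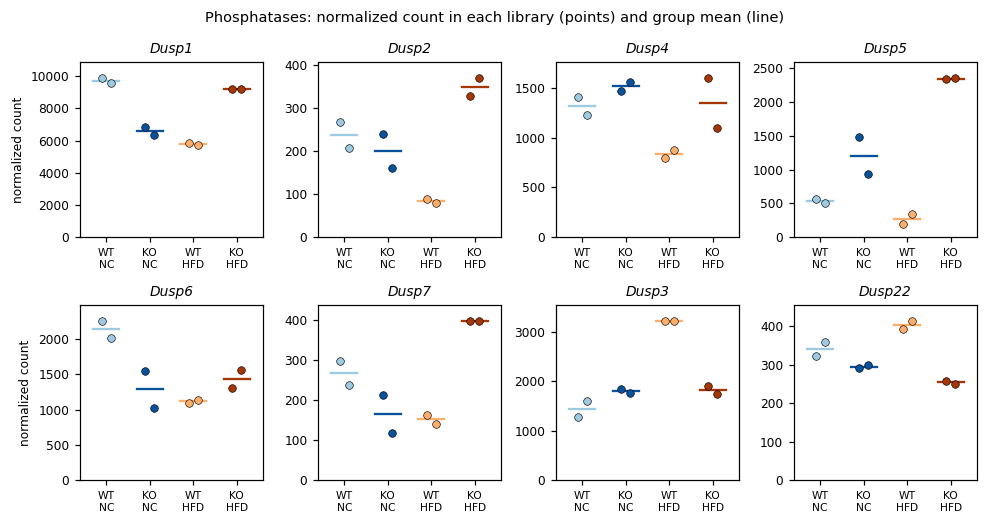
Normalized counts of 8 phosphatase genes in each library (points) with group means (lines), by group. Dusp1, Dusp2, Dusp4, Dusp5 and Dusp7 lie higher in KO HFD than in WT HFD; Dusp3 stands highest in WT HFD, at 3214 and 3215.

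Of the cytoplasmic phosphatases that act on ERK, Dusp7 (MKP-X) had 164 and 140 normalized counts in WT HFD and 398 and 397 in KO HFD, against 298 and 238 in WT NC and 213 and 118 in KO NC. KO HFD stood above all other libraries. This gave a log2 fold change of 1.39 ± 0.29 (SE; limma adjusted p = 0.0028). Dusp6, a classical ERK feedback phosphatase, had 1099 and 1142 in WT HFD and 1302 and 1561 in KO HFD, and this difference did not pass (0.35 ± 0.20, limma adjusted p = 0.19). Dusp9 ranged from 0 to 50 normalized counts over all libraries, with 42 and 50 in WT HFD against 13 and 13 in KO HFD, and was not called (-1.74 ± 1.27, limma adjusted p = 0.31), although a fit of only the groups compared called it lower (limma adjusted p = 0.043). The phosphatases of JNK and p38, Dusp8, Dusp10 and Dusp16, were not called, with log2 fold changes of -0.43, -0.55 and -0.15. Dusp10 had 2836 and 3107 in WT HFD against 2761 and 1496 in KO HFD, and its log2 fold change was -0.99, and called, without KO HFD replicate 1 and -0.10 without KO HFD replicate 2.

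Among the atypical DUSPs Dusp3 (VHR), a small phosphatase of ERK and JNK, had 3214 and 3215 normalized counts in WT HFD and 1908 and 1737 in KO HFD. It was at 1275 and 1593 in WT NC and at 1852 and 1761 in KO NC, so that WT HFD stood above all the others. The log2 fold change of -0.82 ± 0.15 (SE; limma adjusted p = 0.0015) held in the averaged fit but was -0.43 and not called after scaling to the same total. Dusp22, a phosphatase that acts in JNK signalling, had 393 and 414 in WT HFD and 258 and 251 in KO HFD (-0.66 ± 0.20, limma adjusted p = 0.022). Its groups ran without overlap in the reverse of the macrophage order, as they did for 1.34% of all genes. The calls of Dusp22 and of Dusp19 (111 and 85 against 40 and 43; -1.21 ± 0.44, limma adjusted p = 0.049) were lost in the averaged fit (adjusted p = 0.12 and 0.16). Dusp13 rested on very few reads, with 4 and 1 normalized counts in WT HFD against 27 and 21 in KO HFD, and its call (2.97 ± 0.94, limma adjusted p = 0.028) was lost there too, with an adjusted p of 0.092. The other 8 tested atypical DUSPs were not called.

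For the ERK cascade kinases Mapk3, Map2k1 and Map2k2 no difference between the genotypes passed on HFD, and none had an unadjusted p below 0.05. Mapk3 had 965 and 1149 against 1040 and 980, and the groups overlapped. The log2 fold changes of Map2k1 and Map2k2 were -0.16 ± 0.18 and 0.23 ± 0.16. In the ERK5 cascade Mapk7 was at 154 and 164 in WT HFD and 166 and 204 in KO HFD (0.21 ± 0.30), and Map2k5 at 568 and 590 against 579 and 484 (-0.13 ± 0.18).

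In the JNK cascade Mapk9 (JNK2) had 1393 and 1441 normalized counts in WT HFD and 914 and 842 in KO HFD, against 858 and 855 in WT NC and 1037 and 1258 in KO NC. WT HFD stood above all other libraries, and KO HFD was at the level of WT NC. The log2 fold change on HFD was -0.69 ± 0.16 (SE; limma adjusted p = 0.0053). Map2k4, which phosphorylates JNK, had 1267 and 1392 in WT HFD and 908 and 787 in KO HFD (-0.65 ± 0.19, limma adjusted p = 0.017). WT HFD again lay highest, while the other 3 groups ran from 757 to 1074. Mapk8 (JNK1) had 596 and 668 against 439 and 674 and overlapped between genotypes, and Map2k7 had 480 and 545 against 426 and 394 (-0.32 ± 0.19, limma adjusted p = 0.20). Mapk10 was at 54 and 42 against 49 and 128. Of the exon bases of Map2k7 35.2% lay over a gene on the same strand, and reads shared by several genes had been excluded from the counts. The scaffold of this cascade, Mapk8ip1 (JIP1), had 402 and 389 in WT HFD and 261 and 255 in KO HFD (-0.61 ± 0.21, limma adjusted p = 0.042).

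None of these 3 lower calls held in the averaged fit, with adjusted p of 0.057 for Mapk9, 0.10 for Map2k4 and 0.17 for Mapk8ip1. After scaling to the same total their log2 fold changes were -0.31, -0.27 and -0.23, and none was called. This scaling multiplies all values of a library by the same factor, so it shifts well-expressed genes alike. It moved the median of all genes from 0.09 to 0.47, and their place relative to that median could not change. Lower in the same libraries were 7 of 8 adipocyte markers, and the part of fewer adipocytes in these values was not tested.

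In the p38 cascade Mapk12 (p38 gamma), known for its expression in muscle, had 85 and 80 normalized counts in WT HFD and 175 and 262 in KO HFD, against 141 and 136 in WT NC and 173 and 140 in KO NC. WT HFD was the lowest group, without overlap with any other. The log2 fold change was 1.37 ± 0.30 (SE; limma adjusted p = 0.0037), and without KO HFD replicate 2 it was 1.08 with an adjusted p of 0.051. Map2k3 (MKK3) had 1191 and 1148 in WT HFD and 1753 and 1783 in KO HFD, and KO HFD exceeded all other libraries. Its log2 fold change of 0.60 ± 0.15 (SE; limma adjusted p = 0.0095) was not called in the averaged fit (adjusted p = 0.080). The main p38 kinase Mapk14 did not follow: it had 1242 and 1021 in WT HFD and 945 and 760 in KO HFD (-0.41 ± 0.19, limma adjusted p = 0.11). Mapk11 had 87 and 76 against 73 and 109, and Map2k6 had 118 and 130 against 87 and 84 (-0.53 ± 0.37, limma adjusted p = 0.28). The atypical kinase Mapk6 had 6417 and 6271 in WT HFD and 6995 and 6056 in KO HFD, a log2 fold change of 0.04 ± 0.16. Mapk4 held at most 25 normalized counts in any library.

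**Figure D4:**
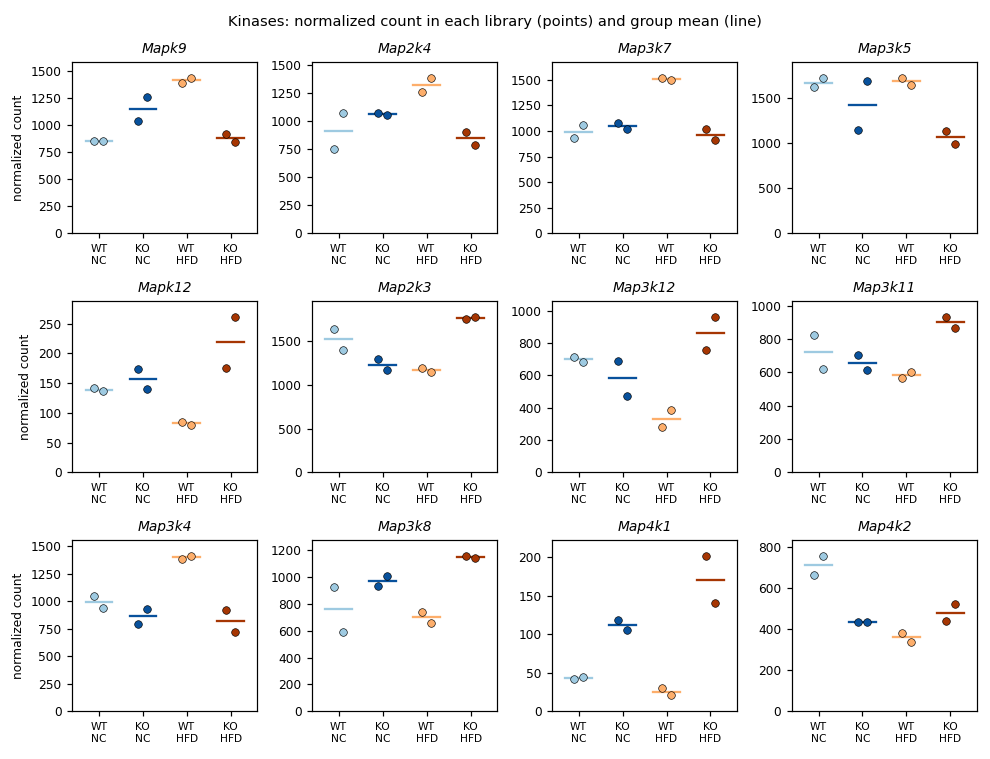
Normalized counts of 12 kinase genes in each library (points) with group means (lines), by group. Mapk9, Map2k4, Map3k7 and Map3k4 lie highest in WT HFD, whereas Mapk12, Map3k12 and Map4k1 lie lowest there and highest on average in KO HFD.

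Of the 16 MAP3Ks 5 were higher and 3 lower in KO on HFD, where 17.1% and 15.1% of all genes were, and in the averaged fit 1 and 1. Map3k12, the dual leucine zipper kinase (DLK) of stress signalling to JNK, had 281 and 383 normalized counts in WT HFD and 760 and 965 in KO HFD. In WT NC it had 717 and 684 and in KO NC 689 and 474, so WT HFD was below and KO HFD above all other groups. Its log2 fold change was 1.38 ± 0.23 (SE; limma adjusted p = 0.0006), and 17.5% of its exon bases lay opposite Pcbp2. Map3k9 (MLK1) was low, with 14 and 6 in WT HFD and 86 and 38 in KO HFD (2.51 ± 0.71, limma adjusted p = 0.017). It was also low in WT NC, with 6 in each library, while KO NC had 25 and 34.

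Map3k8 (TPL2), an activator of MEK downstream of inflammatory receptors, had 740 and 661 in WT HFD and 1159 and 1139 in KO HFD (0.72 ± 0.20, limma adjusted p = 0.016). Map3k11 (MLK3) had 568 and 605 against 935 and 866 (0.62 ± 0.18, limma adjusted p = 0.021), and Map3k1 (MEKK1) had 1049 and 1087 against 1655 and 1565 (0.59 ± 0.15, limma adjusted p = 0.0097). KO HFD was the highest group without overlap for Map3k8 and Map3k11, but for Map3k1 it overlapped both NC groups. In the averaged fit, Map3k12 alone of these 5 was called (adjusted p = 0.0085), and the adjusted p of the others were 0.065 to 0.12.

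The lower MAP3Ks were Map3k4, Map3k5 and Map3k7. Map3k4 (MEKK4), which is bound by GADD45 proteins, had 1386 and 1414 in WT HFD and 922 and 717 in KO HFD (-0.78 ± 0.17, limma adjusted p = 0.0043), and WT HFD stood above all others. Without WT HFD replicate 2 its adjusted p was 0.05, on the far side of the limit before rounding. Map3k7 (TAK1), the kinase through which TNF and interleukin-1 receptors reach JNK and p38, had 1523 and 1498 against 1019 and 911 (-0.65 ± 0.16, limma adjusted p = 0.0067), and 927 and 1061 in WT NC against 1082 and 1018 in KO NC. Map3k5 (ASK1), activated by oxidative stress, had 1728 and 1647 against 1140 and 991 (-0.67 ± 0.19, limma adjusted p = 0.015). For Map3k5 WT HFD overlapped WT NC (1622 and 1719). The calls of Map3k7 and Map3k5 were lost in the averaged fit (adjusted p = 0.066 and 0.10), and none of the 3 was called after scaling to the same total, with log2 fold changes of -0.40, -0.26 and -0.28. Map3k6 (ASK2) had 2101 and 2205 against 1373 and 1691, an adjusted p of 0.024 (limma) at a log2 fold change of -0.50, below the limit for a call. The other 7 MAP3Ks had log2 fold changes between -0.60 and 0.53.

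Of the MAP4Ks Map4k1 (HPK1), a kinase of haematopoietic cells, was higher in KO on HFD. It had 30 and 21 normalized counts in WT HFD, 42 and 44 in WT NC, 119 and 105 in KO NC and 202 and 140 in KO HFD. The groups did not overlap and were in the order of the macrophage marker sums. Its log2 fold change was 2.70 ± 0.39 (SE, limma adjusted p = 0.00025), and it held in the averaged fit and without each HFD library in turn. Of the lymphocyte markers 2 of the 5 tested were higher in KO on HFD, Cd79a of B cells and Ptprc, which all leukocytes express, and the list summed to 3282 and 3383 against 306 and 192 in WT, where Cd3g was at 0. Their part in the level of Map4k1 was not tested. Map4k4, the most abundant MAP4K, had 7033 and 6869 in WT HFD and 7470 and 7839 in KO HFD, with a log2 fold change of 0.14 ± 0.14 (limma adjusted p = 0.48).

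The comparison of KO with WT on NC asks whether the transcripts differ without the dietary challenge. Of the 67 members 2 were called, where 4.71% of all genes were, and 13 (19.4%) had an unadjusted p below 0.05, as did 17.0% of all genes. Dusp5 rose from 562 and 508 to 1475 and 940 (1.14 ± 0.26, limma adjusted p = 0.022). This call held in the averaged fit but not without KO NC replicate 1, WT NC replicate 1 or WT NC replicate 2 (adjusted p = 0.14, 0.11 and 0.21). KO NC replicate 1, with the higher Dusp5, was also the library with the higher macrophage marker sum of 30337. Dusp6 fell from 2256 and 2022 to 1555 and 1018 (-0.76 ± 0.20, limma adjusted p = 0.045), and this call was not made in the averaged fit (adjusted p = 0.11), in which 3.45% of all genes were called. It was lost as well without KO NC replicate 2, WT NC replicate 1 or WT NC replicate 2, with adjusted p of 0.19 to 0.27. Dusp1 had an adjusted p of 0.038 (limma) at a log2 fold change of -0.56 ± 0.14, just below the limit for a call, and was called after scaling to the same total. Map4k2 had 662 and 756 in WT NC and 432 and 432 in KO NC (-0.71 ± 0.19, limma adjusted p = 0.051), and was called under 4 of 11 alternatives. The 8 immediate-early genes that were lower in KO on NC moved with Dusp1 and Dusp6, and their part was not tested.

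In WT mice on HFD the 4 inducible nuclear phosphatases were lower than on NC, and Mapk9 of the JNK cascade and its upstream kinase Map3k7 were higher. In all 11 members were called, 4 higher and 7 lower, where 18.0% of all genes were called (8.74% higher and 9.22% lower). Dusp2 fell by 1.48 ± 0.27 on the log2 scale (SE; limma adjusted p = 0.0043), Dusp5 by 1.01 ± 0.26 (0.017), Dusp1 by 0.75 ± 0.14 (0.0043) and Dusp4 by 0.65 ± 0.19 (0.03). The cytoplasmic phosphatase Dusp6 fell by 0.93 ± 0.20, from 2256 and 2022 to 1099 and 1142 (limma adjusted p = 0.0079). Map3k12 fell by 1.09 ± 0.23 (limma adjusted p = 0.0074). Map4k2, a MAP4K of TNF signalling, fell from 662 and 756 to 380 and 338, by 0.98 ± 0.19 (limma adjusted p = 0.005). Several other lists were lower with these members in WT on HFD than on NC: 8 of 8 immediate-early genes, 9 of 10 macrophage markers (median log2 fold change -1.01), 4 of 7 endothelial and 3 of 7 fibroblast markers. In the averaged fit 2 of 8, 1 of 10, 0 of 7 and 1 of 7 of them were called lower. The part of these lists was not tested.

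Higher in WT on HFD were Dusp3 (1.17 ± 0.15, limma adjusted p = 0.00065), Mapk9 (0.73 ± 0.16, 0.0096), Map3k7 (0.61 ± 0.16, 0.019) and Dusp19 (1.33 ± 0.44, 0.05). Map2k4 lay just outside the call at 0.56 ± 0.19 (limma adjusted p = 0.053). In the averaged fit Dusp3 alone was called (adjusted p = 0.026), where 2.87% of all genes were, and the smallest adjusted p among the 10 lost calls was 0.053, of Dusp2. Scaling to the same total moved the median of all genes from -0.08 to -0.48, and then 1 member was called higher and 18 lower, where 2.5% of all genes were higher and 19.0% lower. Of the 11 calls 9 were lost without WT NC replicate 1, 6 without WT NC replicate 2 and 8 without each of the WT HFD libraries, and Dusp3 was called each time; the adjusted p of the lost calls were 0.051 to 0.24.

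In KO mice limma called 0 members between HFD and NC, where 1.07% of all genes were called, and 11 of 67 members (16.4%) had an unadjusted p below 0.05, as did 15.5% of all genes. Dusp7 came closest, at 213 and 118 normalized counts in KO NC and 398 and 397 in KO HFD (1.32 ± 0.29, limma adjusted p = 0.051). Dusp5 had 1475 and 940 against 2331 and 2354 (0.99 ± 0.26, limma adjusted p = 0.085). Dusp1 had 6830 and 6338 against 9208 and 9228 (0.49 ± 0.14, limma adjusted p = 0.12) and Map2k3 had 1294 and 1170 against 1753 and 1783 (0.52 ± 0.15, limma adjusted p = 0.12). For each of these KO HFD lay above KO NC without overlap. In 34.3% of members KO HFD was above KO NC in both libraries, against 22.7% of all genes, and in 8.96% below, against 19.3%. Dusp3 and Mapk9, which were higher on HFD in WT, had log2 fold changes of 0.01 ± 0.15 and -0.38 ± 0.16 in KO.

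Whether the genotypes responded differently to the diet was tested by the interaction, the KO effect on HFD minus the KO effect on NC. It was called for 13 of 67 members, 9 positive and 4 negative, where 17.4% of all genes were called (8.69% positive and 8.73% negative). Positive were Dusp13 (4.63 ± 1.33, limma adjusted p = 0.033), Dusp2 (2.29 ± 0.39, 0.0047), Dusp7 (2.13 ± 0.41, 0.0074), Dusp5 (2.01 ± 0.36, 0.0059), Map3k12 (1.67 ± 0.32, 0.0075), Dusp1 (1.24 ± 0.20, 0.0038), Map4k2 (1.12 ± 0.27, 0.016), Dusp6 (1.11 ± 0.28, 0.019) and Map2k3 (0.90 ± 0.22, 0.017). Negative were Dusp3 (-1.16 ± 0.22, limma adjusted p = 0.007), Mapk9 (-1.11 ± 0.23, 0.0095), Map2k4 (-0.89 ± 0.26, 0.037) and Map3k7 (-0.73 ± 0.22, 0.04). Of the 22 tested DUSPs 6 were positive and 1 negative. The interaction was also positive for 10 of 10 macrophage, 6 of 7 fibroblast, 6 of 7 endothelial and 5 of 8 immediate-early genes and negative for 7 of 8 adipocyte markers, which in the averaged fit were 6, 2, 0, 1 and 0, and the part of these lists was not tested.

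Dusp5 was the one member of the 13 whose genotype difference pointed upward on both diets and was called on both. For Dusp1 the log2 difference was -0.56 on NC and 0.67 on HFD, and for Mapk9 it was 0.41 on NC and -0.69 on HFD. For Map4k2 it was -0.71 on NC and 0.41 on HFD, neither of them called. In the averaged fit 5 interactions were called, where 2.75% of all genes were: Dusp1, Dusp2, Dusp5, Dusp7 and Map3k12, with adjusted p of 0.032 to 0.047. Those of Dusp1, Dusp2 and Dusp5 were also called without each of the 8 libraries, and those of Dusp7 and Map3k12 without each except WT NC replicate 1. Without that library 10 of the 13 calls were lost, with adjusted p of 0.052 to 0.16, and without any other library 1 to 7 were. Scaling to the same total moved the median interaction of all genes from 0.10 to 0.52, and then 16 members were positive and 2 negative, the latter being Dusp3 and Mapk9, where 13.9% and 3.29% of all genes were.

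**Figure D5:**
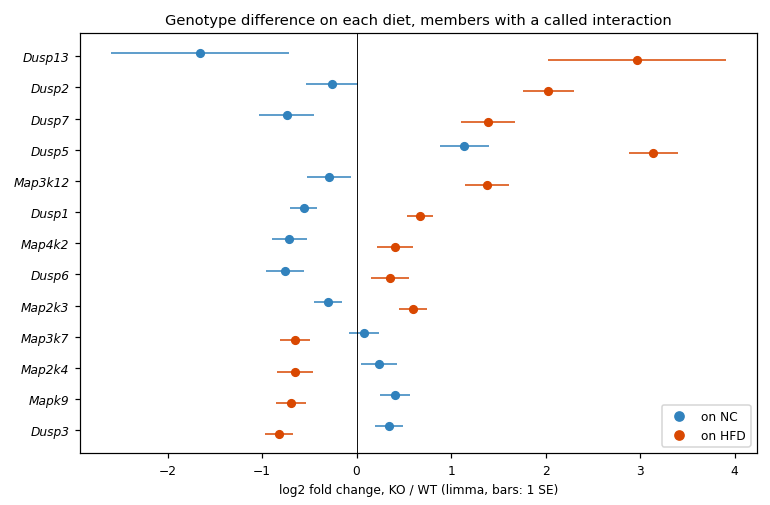
Log2 fold change of KO over WT with 1 SE (limma) on NC and on HFD for the 13 members whose interaction of genotype and diet was called. For Dusp3, Mapk9, Map2k4 and Map3k7 the HFD value lies left of the NC value, and for the other 9 it lies to the right.

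Genes that act around the cascades were described from lists of their own, whose counts stand beside the 17.1% of all genes called higher and 15.1% called lower in KO on HFD. Of 14 genes of RAS signalling 1 was higher and 3 were lower in KO on HFD. Among the lower were Hras (618 and 599 against 453 and 329; -0.65 ± 0.20, limma adjusted p = 0.022) and Shoc2 (1302 and 1342 against 849 and 864; -0.63 ± 0.15, 0.0072). Rasa1, a GTPase-activating protein that switches RAS off, was higher, with 1571 and 1527 against 2227 and 2644 (0.65 ± 0.16, limma adjusted p = 0.0081). Of 6 tested Sprouty and SPRED genes, inhibitors of RAS to ERK signalling, 2 were higher and 1 was lower. Spred1 had 1026 and 1178 in WT HFD and 2702 and 2903 in KO HFD (1.35 ± 0.17, limma adjusted p = 6.3e-05), Spred3 had 39 and 21 against 169 and 179 (2.56 ± 0.37, 0.00022), and Spry4 had 1712 and 1741 against 893 and 1128 (-0.78 ± 0.19, 0.0066).

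Of 10 tested kinases that MAP kinases activate 2 were higher and 2 lower. Rps6ka1 (RSK1) had 72 and 36 in WT HFD and 188 and 247 in KO HFD (2.06 ± 0.39, limma adjusted p = 0.0015), and Rps6ka2 had 207 and 213 against 437 and 391 (0.97 ± 0.32, 0.034). Mknk2, which phosphorylates the translation factor eIF4E, had 12636 and 12318 against 6280 and 4080 (-1.30 ± 0.20, limma adjusted p = 0.00039), and Rps6ka3 (RSK2) had 8409 and 8964 against 4567 and 3596 (-1.10 ± 0.17, 0.00033). Of 8 TAB, TRAF and GADD45 genes Tab3, a binding partner of TAK1, was lower, with 982 and 1113 against 434 and 471 (-1.21 ± 0.19, limma adjusted p = 0.00043). Of 7 other phosphatases of MAP kinases Ptpn7, the haematopoietic tyrosine phosphatase, was higher, with 12 and 13 against 184 and 153 (3.65 ± 0.43, limma adjusted p = 4.5e-05). Ppm1a and Ppm1b were lower at -0.97 ± 0.18 (0.0016) and -0.72 ± 0.23 (0.028). The calls of Hras, Shoc2, Rasa1, Spry4, Rps6ka2 and Ppm1b were lost in the averaged fit.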

How the data were processed

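Total RNA of isolated epididymal white adipocytes was depleted of ribosomal RNA and sequenced from a stranded kit as single-end reads (8 libraries, 4 groups). The authors used Reaper for trimming and STAR 2.5.2b for alignment to GRCm38, counted reads at least partly in exons with featureCounts 1.5.1, with reads over several genes or places left out, and used DESeq2 1.14.1 for testing. The values the authors deposited are treated as a score, since they are read counts that had been scaled by size factors and then rounded. As estimated from which whole numbers occur, 1 read is worth 0.795 to 1.135 of them. A value of 0 thus means that no read was counted, and the expected number of reads behind it can be up to about 3. Whole reads could not be recovered gene by gene, so no count test was run. Reads carry no molecular identifiers, and depth intervals cover counting error only.

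Genes with a mean of at least 5 (18800 of 30387) were fitted with limma 3.58.1 in R 4.3.3 (lmFit, contrasts.fit, eBayes with trend) after a log2 transform with a pseudocount of 1, which understates changes of low genes, with 4 group means in 1 fit and 4 residual and 8.59 prior degrees of freedom. Adjustment was Benjamini-Hochberg over all tested genes, and a call needed an adjusted p up to 0.05 and a log2 fold change of 0.59 or more in size, limits taken from the study's methods. With 2 libraries against 2 an exact two-sided permutation test cannot give a p below 0.333, so none was used. Members and lists were chosen with earlier results of these data known. Named are the terminal MAP kinases and MAP2Ks (values of 1 of them, and of some other genes, are not reported here), the MAP3Ks, MAP4Ks, DUSPs and scaffolds called in any comparison, the most abundant member of each class, Yap1 and Wwtr1, and of the other pathway lists up to 4 genes called in KO against WT on HFD. Exon lengths and overlaps came from GENCODE vM21, whose gene identifiers match the table, and promoter windows from RefSeq (GRCm38.p6). The scripts were tested on simulated data, where no gene was called wrongly in direction. Python 3.11.15 with pandas 2.3.3 and numpy 2.4.6 made the tables, and matplotlib 3.10.9 drew the figures.

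Alternatives were pseudocounts of 0.1 and 8, no filter or a mean of at least 50, 3 other scalings (same total, upper quartile, quantile), the robust form of eBayes, a block for the replicate number, the mean of both WT HFD libraries as 1 sample (the averaged fit), only the groups compared, and leaving out each library in turn.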

Additional observations from a re-analysis of the deposited data

Results flagged for a closer look

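The genotype difference on HFD departed from that on NC, by the interaction term of the limma fit, in 13 members, and each is given here as the KO effect on HFD minus the KO effect on NC on the log2 scale. For the nuclear phosphatases Dusp2, Dusp5 and Dusp1 this difference was 2.29, 2.01 and 1.24. For the cytoplasmic ERK phosphatases Dusp7 and Dusp6 it was 2.13 and 1.11, and for the atypical phosphatases Dusp13 and Dusp3 it was 4.63 and -1.16, where Dusp13 rests on 1 to 27 normalized counts per library. For the kinases Map3k12, Map4k2 and Map2k3 it was 1.67, 1.12 and 0.90, and for Mapk9, Map2k4 and Map3k7 it was -1.11, -0.89 and -0.73. No explanation of these differences was tested.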

How the results depend on the processing

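Between the genotypes on HFD 23 members were called, but 15 after quantile normalization, 9 in the averaged fit, and 8 to 17 when 1 library was left out. On NC 2 were called, against 4 after upper-quartile scaling, 1 with a pseudocount of 0.1 or in the averaged fit, 0 without a filter on low values or in a fit of only the groups compared, and 0 to 4 with 1 library left out. For HFD against NC in WT, 11 calls became 19 after scaling to the same total and 1 in the averaged fit, and 2 to 7 with 1 library left out. In KO, 0 calls became 1 with a pseudocount of 8, upper-quartile scaling or quantile normalization, and 0 to 3 with 1 library left out. For the interaction 13 calls became 8 without a filter and 5 in the averaged fit, and 3 to 14 with 1 library left out. The counts with 1 library left out cover only the libraries of the groups compared, and fits without a library of another group are not included in them. No named call changed its direction under any of these alternatives. Of 49 named calls 33 were lost in the averaged fit, 15 after scaling to the same total, 14 without a filter and 13 after quantile normalization. Precision rests on 2 libraries per group, and members under about 50 normalized counts, such as Dusp13 and Map3k9, are read with most caution.

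The labels do not say what a replicate number shares. The correlation of the difference between replicates 1 and 2 was -0.3 to 0.11 between groups over 12093 genes, with -0.3 between KO NC and KO HFD. Such correlations cannot show whether libraries of the same number were handled together. With the replicate number as a block 1 member was called in KO against WT on NC in place of 2, and the other 4 counts stayed within 1.5 times.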
